A study of Mus musculus with 12 samples.

Results

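BMAL1 regions inside genes, outside their annotated exons and away from gene starts numbered 854 among the 4740 regions deposited for the series. Of these, 29 were pieces of a called peak split in the list, and 842 called peaks lay behind the 854 regions. For 1 of the 29, another piece lay within 1 kb of a gene start. BMAL1 is the clock activator that pairs with CLOCK. A region was counted as intronic when it lay more than 1 kb from every gene start, its midpoint fell inside the outer limits of a gene, and the midpoint touched no annotated exon. By RefSeq, 823 of the 854 lay in a gene of the host's name, and the other 31 did not. A gene starts, for this purpose, where its outermost exon begins. Of the other regions, 2944 lay within 1 kb of a gene start, 854 were intergenic and 88 were exonic. The data came from embryonic fibroblasts of 129/sv mice that were per1-/-, per2-/-, nr1d1-/- and nr1d2-/- and that carried a PER2-ER transgene, in every group. The promoter that drives the transgene, and whether the cells were 1 clone, were not stated in the labels. Cells received 1 µM 4-hydroxytamoxifen (4-OHT), a ligand of the estrogen receptor, or 0.1% ethanol (EtOH), its solvent, for 4 h before collection. The series compared cells with and without PER2 induction, by BMAL1 ChIP-seq, ChIP input and mRNA-seq, with 2 libraries in each of 6 groups.

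CLOCK and BMAL1 bind E-boxes, short DNA elements with the core CACGTG, and activate genes that include their own repressors. PER and CRY proteins are the repressors of this loop. REV-ERB and ROR receptors act on the Bmal1 promoter, and the factors DBP, TEF and HLF carry the rhythm to output genes through D-boxes. Introns are known to hold enhancers as well as the start sites of shorter transcripts of the same gene.

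An intronic region can therefore lie at an alternative start. Of the 854 regions, 63 (7.38%) overlapped a RefSeq start window, which spans 250 bases before to 50 bases after an annotated start in GRCm38.p6, and 56 overlapped a start window of their own host gene. The share was 58.8% for regions within 1 kb of an outermost start and 7.03% for intergenic regions. The 250 bases before the internal start are printed here for the 7 strongest of these 56 regions, to show which of these stretches hold the E-box. All 7 are read 5′ to 3′ on the plus strand, with capitals marking CACGTG. The windows are chr15:81811164-81811413 for Tef, chr3:41564630-41564879 for Jade1 (listed under its older name Phf17 in the count table), chr6:117907554-117907803 for Hnrnpf, chr13:35741152-35741401 for Cdyl, chr10:69212407-69212656 for Rhobtb1, chr3:60500929-60501178 for Mbnl1 and chr19:53903101-53903350 for Pdcd4.
Tef: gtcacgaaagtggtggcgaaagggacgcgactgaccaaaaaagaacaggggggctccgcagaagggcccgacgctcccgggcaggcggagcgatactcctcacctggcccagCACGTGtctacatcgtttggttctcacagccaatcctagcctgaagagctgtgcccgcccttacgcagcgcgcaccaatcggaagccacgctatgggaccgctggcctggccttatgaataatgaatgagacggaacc
Jade1: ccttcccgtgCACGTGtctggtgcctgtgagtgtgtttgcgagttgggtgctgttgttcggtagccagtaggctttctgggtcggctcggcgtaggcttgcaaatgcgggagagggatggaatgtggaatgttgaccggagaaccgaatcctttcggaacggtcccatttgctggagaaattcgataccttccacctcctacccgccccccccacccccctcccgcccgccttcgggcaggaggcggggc
Hnrnpf: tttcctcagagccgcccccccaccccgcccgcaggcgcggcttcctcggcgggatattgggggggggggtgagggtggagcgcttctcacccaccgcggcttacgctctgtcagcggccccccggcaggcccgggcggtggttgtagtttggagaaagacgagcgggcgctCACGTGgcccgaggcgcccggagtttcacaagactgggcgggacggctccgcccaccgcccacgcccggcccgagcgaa
Cdyl: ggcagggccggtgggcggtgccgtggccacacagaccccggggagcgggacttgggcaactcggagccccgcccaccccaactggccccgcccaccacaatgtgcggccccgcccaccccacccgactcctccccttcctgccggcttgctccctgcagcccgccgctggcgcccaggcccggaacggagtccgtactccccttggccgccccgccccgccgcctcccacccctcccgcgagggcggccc
Rhobtb1: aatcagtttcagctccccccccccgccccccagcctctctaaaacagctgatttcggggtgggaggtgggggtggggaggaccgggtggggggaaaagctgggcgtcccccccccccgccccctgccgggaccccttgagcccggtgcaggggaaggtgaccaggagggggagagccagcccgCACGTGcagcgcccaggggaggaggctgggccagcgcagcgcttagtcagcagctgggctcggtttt
Mbnl1: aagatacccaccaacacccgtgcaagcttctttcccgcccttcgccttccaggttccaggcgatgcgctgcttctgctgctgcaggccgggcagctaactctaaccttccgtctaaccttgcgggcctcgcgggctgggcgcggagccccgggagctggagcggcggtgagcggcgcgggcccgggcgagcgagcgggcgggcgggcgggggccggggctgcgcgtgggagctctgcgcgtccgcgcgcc
Pdcd4: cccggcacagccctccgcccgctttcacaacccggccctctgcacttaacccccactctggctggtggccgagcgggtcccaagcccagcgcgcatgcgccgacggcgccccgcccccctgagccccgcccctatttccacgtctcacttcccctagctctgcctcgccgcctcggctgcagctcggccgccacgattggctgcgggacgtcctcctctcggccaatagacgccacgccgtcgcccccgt
The first base of the E-box lay 138 bases before the start in Tef, 240 in Jade1, 79 in Hnrnpf and 67 in Rhobtb1. CACGTG thus stood in 4 of the 7 printed stretches, and in none of these bases for Cdyl, Mbnl1 and Pdcd4. The regions of Mbnl1 and Pdcd4 shared only 77 and 128 of the 300 bases of their start windows. Whole regions were not searched, so an E-box elsewhere in them would not be seen.

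The E-box was common in the start windows under intronic regions. Searched on both strands, CACGTG stood in 22 of the 74 windows that intronic regions overlapped (29.7%). The share was 38.4% of 2139 windows under regions within 1 kb of an outermost start, 34.7% of 72 windows under intergenic regions and 7.15% of all 32851 windows. Some windows belong to transcripts of 1 gene and share bases, and no test was run. The variant CACGTT stood in 2.70% of the intronic windows against 4.68% of all windows. The D-box TTANGTAA stood in 2.70% against 2.32%, the AP-1 site TGANTCA in 9.46% against 7.81%, the TEAD site GGAATG in 16.2% against 14.7%, and CCAAT in 32.4% against 37.4%. The tandem E-box, a CACGTG followed after a short gap by a CANNTG, stood in 1 intronic window (1.35%, against 0.125% of all windows). It contains the single E-box. The bases of the other 791 intronic regions were not searched, nor were bases of the 63 that lay outside the windows.

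BMAL1 libraries rested on 13502201 to 20712373 reads, inputs on 12481308 to 33454366 reads and mRNA libraries on 60267540 to 89695667 counted reads. Nothing in the labels says that the libraries of a group stem from different cultures, and the p-values cover the spread among these libraries alone, which may be technical. Signal is given as reads per 10000000 library reads (RP10M) and is not corrected for region length. Of 14 fibroblast markers, 13 passed the filter on low counts, with a summed level of 29334 to 32438 CPM (read counts scaled by library size), and none changed. Thy1 had no reads. The defining endothelial, muscle, glial and adipocyte genes Cdh5, Cldn5, Myod1, Myf5, Gfap, Adipoq and Plin1 had none either, while Acta1 of the muscle list reached 26.9 CPM. The other 6 marker lists summed to between 1.15 and 76.2 CPM in each library. Of their members endothelial Kdr (2.36 and 2.69 CPM with EtOH, 0.967 and 1.13 with 4-OHT) and adipocyte Fabp4 (71.4 and 76.2, then 58.2 and 59.6) fell and neural Tubb3 (3.55 and 3.34, then 4.57 and 5.24) rose, and their part in the mRNA results was not tested. Per1 was read at 36.5 to 45.7 CPM and Per2 at 546 to 614 CPM. Nr1d1 read 48.9 and 55.6 CPM with EtOH and 16.5 and 17.7 CPM with 4-OHT. Nr1d2 read 82.9 and 91.9 CPM with EtOH and 39.7 and 35.6 CPM with 4-OHT. Exon counts thus show transcripts of these genes in cells labelled as knockouts. Which alleles or constructs the reads came from was not tested.

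The intronic regions were mostly weak, narrow and far from starts, and other classes were about as weak and narrow. The EtOH library medians were 24.4 and 22.7 RP10M both in introns and between genes, and 25.2 and 22.7 at gene starts. The mean signal with EtOH ranged from 1.79 to 4628 RP10M with a median of 23.2, and 55 regions exceeded 100. Only 8 of the 100 strongest regions of the series were intronic, and the Tef region alone held 12.3% of the summed intronic signal. Median length was 211 bp, against 213 bp between genes and 236 bp at gene starts, and 11 intronic regions were shorter than 50 bp. The nearest gene start lay a median of 19837 bp away (quartiles 5490 and 48265 bp), with 200 regions at 1 to 5 kb and 204 beyond 50 kb. For 597 regions that nearest start was the host's own. The rule's limit of 1 kb cuts through a continuum. The nearest regions inside it were those of Rab3gap2 at 1012 bp (33.9 RP10M with EtOH and 5.08 with 4-OHT) and Ahnak at 1013 bp (22.1 and 10.7). The nearest just outside were those of Hmga1 at 999 bp (80.5 and 23.1) and Sntb2 at 998 bp (37.6 and 16.3).

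**Figure D1:**
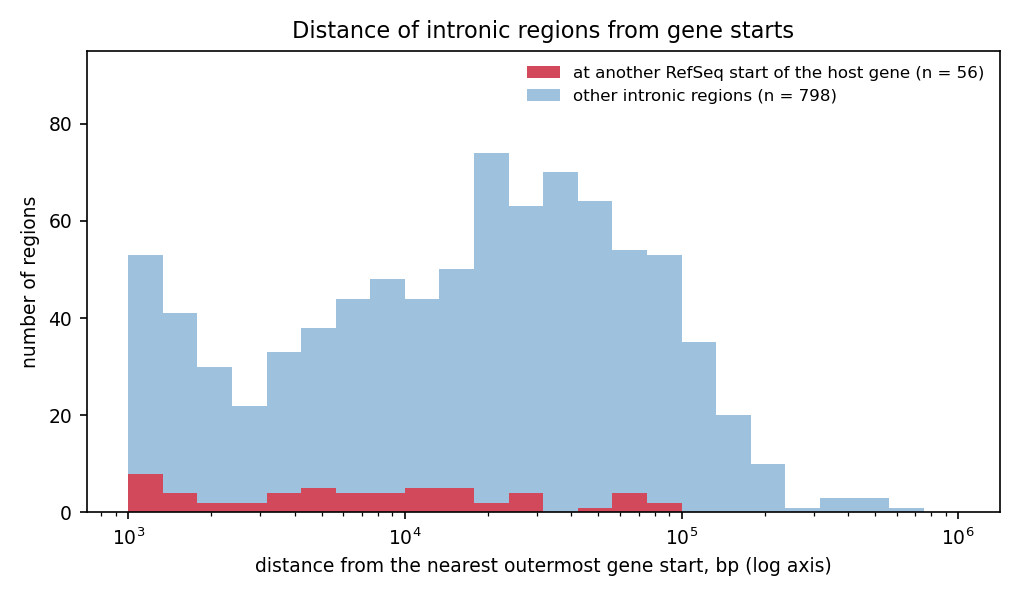
Number of intronic BMAL1 regions (y axis) by distance from the nearest outermost gene start in bp (x axis, log scale), stacked into regions at another RefSeq start of their host (red, n = 56) and the others (blue, n = 798). Most regions lay beyond 5 kb, around a median of 19837 bp, and red regions occurred both near and far from the outermost start.

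Where the RefSeq table could be set against the host names, 823 regions lay in a gene of the same name and 31 did not. Of those 31, 17 were assigned only to Snora19, 6 only to Gm2913 and 6 only to a microRNA. Such small genes have scattered copies that the count table joins into 1 long span, so the region lies between copies and not in an intron of the named gene. The second strongest member, in the span named Mir3098 (chr2:131204409-131205146), is of this kind, and its nearest gene is Ap5s1 at 5294 bp. Among the 823, 300 (36.5%) lay in the first intron, which held a mean of 32.1% of the intronic bases of the hosts, 168 lay in the second intron and 55 in the last. The 649 supported host genes held 1 region in 515 cases, 2 in 99 and 3 or more in 35. Nfix, a nuclear factor I transcription factor, held the most with 7, followed by 5 each in Plec, the cytoskeletal linker plectin, and Cuedc1.

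The BMAL1 signal of intronic regions was lower with 4-OHT at almost every site. The library medians were 24.4 and 22.7 RP10M with EtOH and 7.28 and 7.24 RP10M with 4-OHT. Both 4-OHT libraries lay under both EtOH libraries, and the inputs, at 1.46, 2.12, 2.40 and 2.09 RP10M, lay under all 4. Exchanging the library medians in all possible ways (exact permutation test, two-sided) returned p = 0.333, and no smaller value can be reached with 2 libraries a group. In edgeR's quasi-likelihood test, 815 of 854 regions fell at an adjusted p below 0.05 (95.4%, against 93.8% of all regions), and 0 rose (0% of all regions, and 0 with an unadjusted p under 0.05). Given those library totals, DESeq2 called 625 lower and 0 higher, out of 3329 lower and 0 higher among all 4740 regions. The median log2 change was -1.71 (quartiles -2.04 and -1.38), a 3.28-fold fall, and both 4-OHT libraries lay under both EtOH libraries at 842 regions (98% of all regions did so). These shares are near those of the whole series and are no result particular to introns. The regions had been called as peaks in EtOH-treated cells, so they entered with a high EtOH signal, which favours calls of a fall over calls of a rise.

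**Figure D2:**
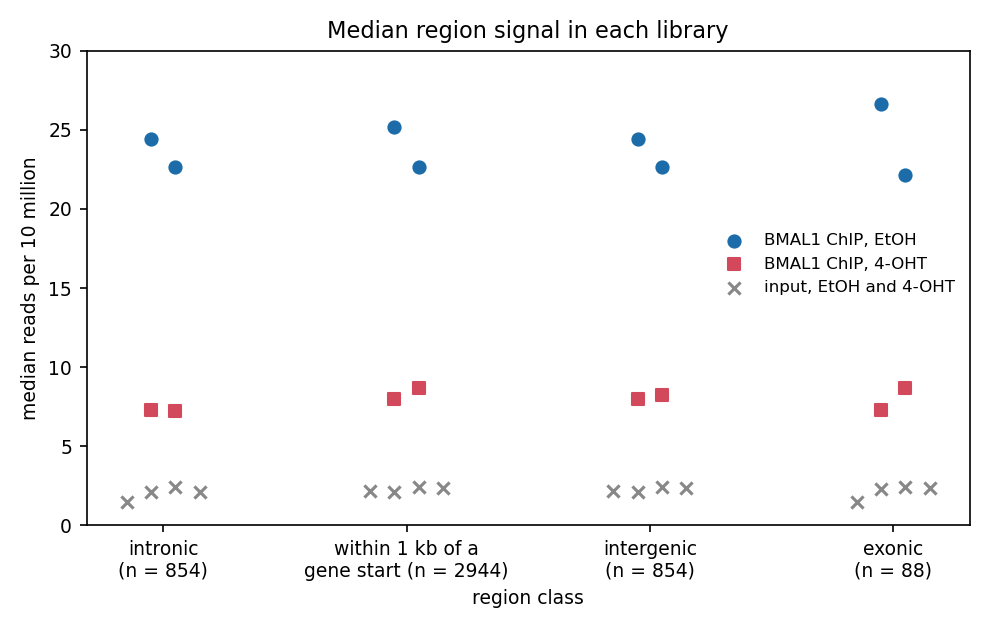
Median signal in RP10M (y axis) of intronic, gene-start, intergenic and exonic regions (x axis), with 1 point per library for BMAL1 ChIP with EtOH (blue), with 4-OHT (red) and for the 4 inputs (grey). In all 4 classes both 4-OHT medians lie well under both EtOH medians and over the inputs.

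The median fall was slightly deeper in introns than at gene starts, and with 2 libraries a group the exact test could not pass. The log2 ratio of the intronic median to the gene-start median was -0.04 and 0.00 with EtOH and -0.14 and -0.26 with 4-OHT. Both 4-OHT ratios lay under both EtOH ratios, and the difference of -0.18 had an exact permutation p of 0.333, raw and adjusted over the 2 classes compared. Per kb of region length it was -0.09. Against intergenic regions the difference was -0.16, also at p = 0.333 by the exact permutation test. Median log2 changes were -1.71 in introns, -1.64 at gene starts, -1.67 between genes and -1.81 in exons. Among regions above 168 RP10M with EtOH the order turned, with -2.15 in introns and -2.25 at gene starts. In each weaker range of EtOH signal introns had the deeper median.

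All regions together held 2.63% and 2.46% of the reads of the EtOH ChIP libraries and 0.689% and 0.749% of those with 4-OHT, against 0.160% to 0.181% of the inputs. The share of reads in regions moved with the fall, and the part of the overall ChIP yield in it was not tested. Under TMM factors computed over the regions, which set the median of all regions to about 0 (0.02 on the log2 scale), 32 intronic regions were lower (4.81% of all regions were) and 14 were higher (1.39% of all regions were). Sites bound only after 4-OHT would not be in a list called with EtOH.

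**Figure D3:**
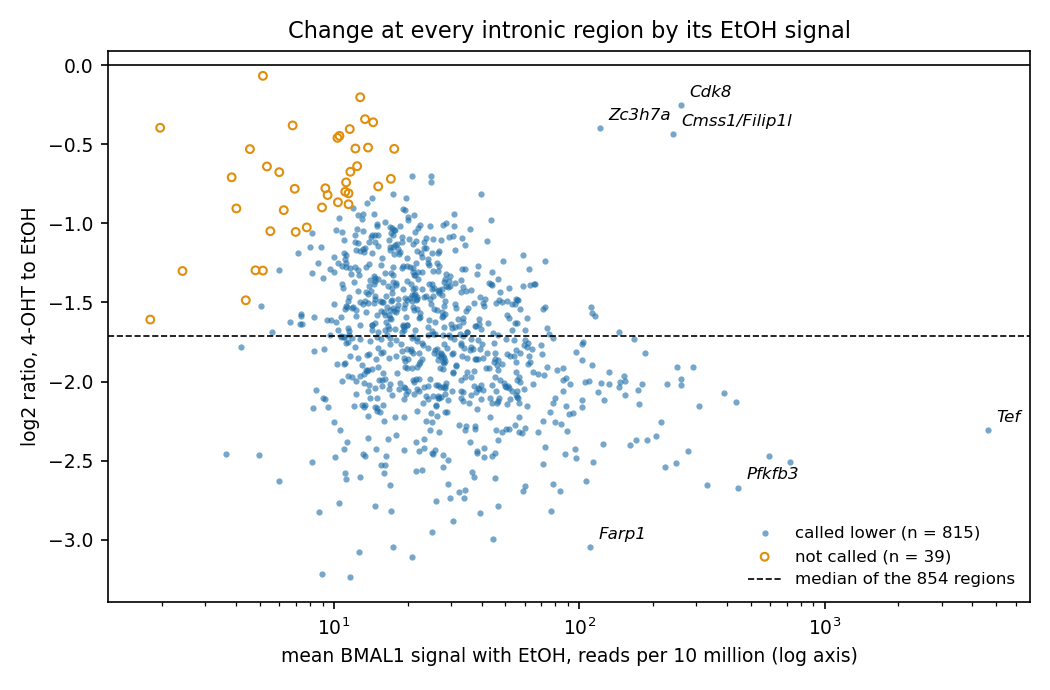
Log2 ratio of 4-OHT to EtOH signal (y axis) against the mean EtOH signal in RP10M (x axis, log scale) for the 854 intronic regions, with filled points for the 815 called lower and open points for the 39 not called. The dashed line is the median of -1.71, and Cdk8, Cmss1/Filip1l and Zc3h7a stand near 0 at signals above 100.

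The size of the fall went with the strength of the region. With regions sorted by their mean EtOH signal, members under 14.8 RP10M had a median log2 change of -1.50, and those above 168 RP10M had -2.15. Gene-start regions went from -1.37 to -2.25 over the same limits, so the gradient was not confined to introns. The EtOH signal enters both quantities, and this is a description. The 39 regions that did not pass were thinly read, with a median of 14 reads in an EtOH library against 37.5 for those called. The 5 strongest of them lay in the span of Snora19 within Xpnpep1 (17.6 to 11.9 RP10M), D630045J12Rik (17.1 to 10.3), Mtor, the kinase of growth control (15.2 to 8.95), Adamts16 (14.5 to 11.1) and Ltbp3 (13.8 to 9.19). Leaving out EtOH replicate 1 turned the Ltbp3 log2 change from -0.52 to 0.03.

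Most intronic regions stayed above input with 4-OHT. In edgeR 852 of 854 stood above input with EtOH (99.5% of all regions), which the calling of peaks in EtOH cells had fixed and which is given as a description. With 4-OHT 680 were called above input (79.6%, against 80.6% of all regions). The median ratio to input went from 12.7 to 3.42. Among members under 14.8 RP10M, 48.8% remained above input, and among those over 168 RP10M all 26 did. These contrasts share their ChIP libraries with the comparison of 4-OHT and EtOH. The inputs themselves showed no called change in the 854 regions (0% of all regions, and 44 at an unadjusted p under 0.05), and their median log2 change was 0.13. When the input change was subtracted in 1 model over 8 libraries, 427 intronic regions fell (50.5% of all regions did).

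The strongest intronic region by far lay in the first intron of Tef (chr15:81810207-81812077), which encodes thyrotroph embryonic factor. It read 4676 and 4580 RP10M with EtOH and 893 and 974 with 4-OHT. Both 4-OHT libraries lay under both EtOH libraries, as at 98% of all regions, at a 4.96-fold lower mean. The inputs averaged 22.9 and 27.7 RP10M. The log2 change was -2.31 (SE 0.09, adjusted p = 1.04e-129), and the region remained 29.9-fold above input. It overlapped the internal Tef start whose window is printed above, 7534 bp from the outermost start.

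Dbp and Nr1d1 also stood among the 10 strongest. The region in the second intron of Dbp, a PAR bZIP factor (chr7:45707464-45707996), read 354 and 312 RP10M with EtOH and 56.0 and 50.2 with 4-OHT. It fell 6.27-fold (log2 change -2.65, SE 0.14, adjusted p = 1.26e-75 in edgeR), with no overlap between the groups, as at 98% of all regions. The region in the first intron of Nr1d1, the gene of REV-ERB alpha (chr11:98772718-98773505), read 311 and 306 RP10M and then 74.2 and 65.2. It fell 4.42-fold, and its edge lay 60 bp from the next region of the list. That next region lay within 1 kb of the Nr1d1 start and read 3031 RP10M with EtOH. In Dbp and in Klf10 the next regions lay 315 bp and 149 bp away.

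**Figure D4:**
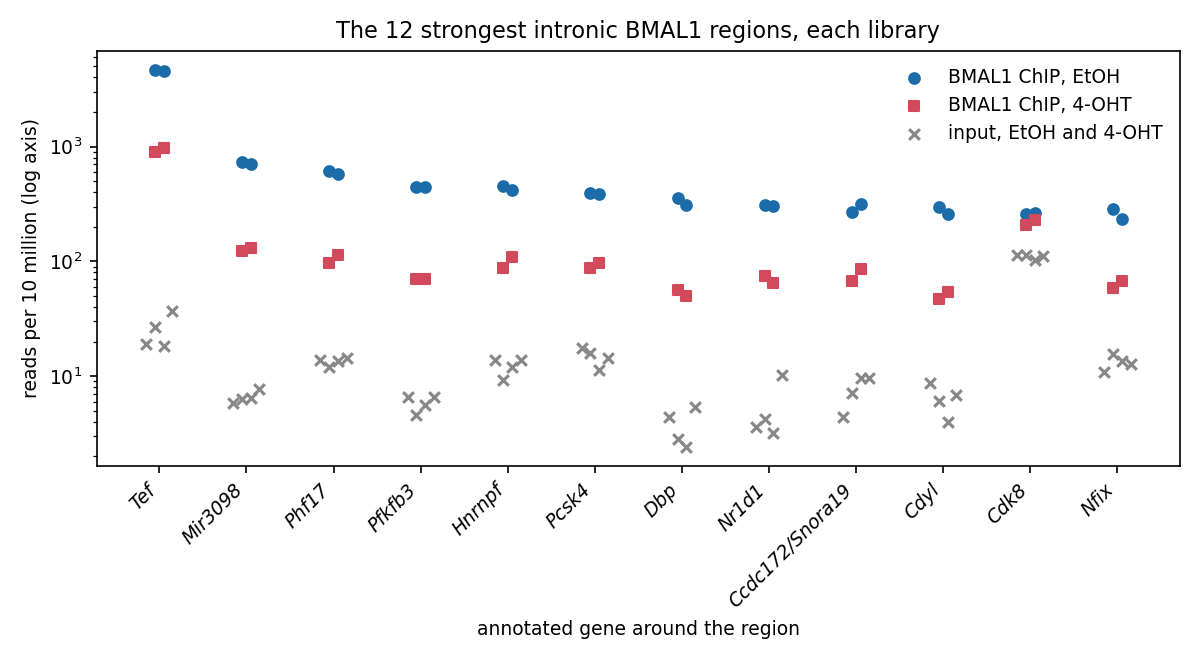
Signal in RP10M (y axis, log scale) of the 12 strongest intronic regions, named by the annotated gene around them (x axis), in each EtOH ChIP library (blue), 4-OHT ChIP library (red) and input library (grey). Red points lie under blue points in each region shown, by 4.96-fold in Tef and by 1.20-fold in Cdk8, where the inputs stand above 100.

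All 15 regions in clock genes and CLOCK-BMAL1 targets fell, a share near the 93.8% of all regions. The list of 34 such genes had 10 hosts, and beside Tef, Dbp and Nr1d1 these were Klf10, Usp2, Npas2, Cry2, Rora, Por and Hlf. The Klf10 region, in a gene for a Krüppel-like factor, read 207 and 204 RP10M with EtOH and 38.6 and 42.0 with 4-OHT. The region in Usp2, a ubiquitin protease gene, read 81.5 and 71.5 and then 10.2 and 11.1, a 7.18-fold fall. It overlapped another RefSeq start of Usp2. In Cry2, the cryptochrome repressor, the region read 44.4 and 45.9 and then 10.9 and 6.28. No 4-OHT value reached an EtOH value in these genes, as at 98% of all regions.

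Regions in Npas2, the CLOCK paralog, fell 2.80-fold and 2.96-fold, and those in Rora, an activating receptor of the loop, 4.13-fold and 2.48-fold. The region in Por, the electron donor of cytochrome P450 enzymes, fell 2.31-fold. The 4 regions in Hlf, the PAR bZIP relative of Tef, were weak, at 12.2 to 16.8 RP10M with EtOH. Hlf regions fell between 2.09-fold and 4.33-fold, and the calls of 2 of them (adjusted p = 0.0116 and 0.0174) were lost on leaving out single libraries and under DESeq2. For the first of these, leaving out EtOH replicate 2 gave an adjusted p of 0.104. The weaker Rora call was lost without 4-OHT replicate 2 (adjusted p = 0.0521) and under DESeq2 with library totals (0.101). Leaving out 4-OHT replicate 1 or 2 moved the log2 change of the stronger Rora region from -2.14 to -2.85 or -1.50. Without 4-OHT replicate 2 the weaker Npas2 region went from -1.46 to -2.30 and the weakest Hlf region from -1.08 to -1.72. With the input change subtracted, the calls of the stronger Npas2 region (adjusted p = 0.416), Por (0.0897), both Rora regions (0.0544 and 0.873) and 2 Hlf regions (0.266 and 0.0862) were lost.

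Pfkfb3, Jade1 and Hnrnpf held strong members outside the clock list. Pfkfb3, which makes the allosteric activator of glycolysis, had a region in its first intron (chr2:11535110-11535745) at 447 and 443 RP10M with EtOH and 69.9 and 70.0 with 4-OHT, a 6.37-fold fall (log2 change -2.67, SE 0.13, adjusted p = 4.80e-90). Jade1, a scaffold of histone acetyltransferase complexes, had one at 613 and 571 and then 97.5 and 114 RP10M. Hnrnpf, a splicing regulator, had one at 452 and 420 and then 88.1 and 109. The groups did not overlap at any of these, nor at Pcsk4, a proprotein convertase gene (392 and 387, then 87.3 and 96.6 RP10M), or at Cdyl, a chromodomain corepressor gene (299 and 258, then 46.6 and 54.6). Both 4-OHT libraries lay under both EtOH libraries at 98% of all regions, so this is not particular to these genes. A region in Hk1, hexokinase of the first step of glycolysis, fell 3.60-fold from 186 RP10M.

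Farp1, Camk2d and Wwtr1 held the regions with the deepest falls among the stronger members. Among members above the median signal, the region in the second intron of Farp1 (chr14:121108375-121108729), read 105 and 116 RP10M with EtOH and 14.6 and 12.6 with 4-OHT, 8.17-fold lower (log2 change -3.05, SE 0.23, adjusted p = 2.06e-37). Camk2d, a calcium-dependent kinase gene, had a region that read 43.7 and 45.4 and then 5.82 and 5.31. Wwtr1, the gene of the YAP relative TAZ, had one at 25.9 and 24.4 and then 2.18 and 3.86, near its input of 2.75. Cdkl1, Thada, Slc20a2, Rbm20, Galnt10 and Rab3gap2 completed the 10 deepest with Usp2, at 6.67-fold to 7.70-fold. These were picked for their size. With 4-OHT the regions of Wwtr1, Cdkl1, Thada, Rbm20 and Galnt10 were not called above input (adjusted p from 0.0529 to 0.497), so background limits the size of their falls.

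The strongest of the 7 Nfix regions read 286 and 233 RP10M with EtOH and 58.2 and 67.6 with 4-OHT. All 7 fell, from means of 14.5 to 259 RP10M, by -1.31 to -2.02 on the log2 scale. Regions in Runx1, a transcription factor gene, and in Fgfr1, a growth factor receptor gene, fell 4.18-fold and 6.28-fold. One in Nfatc2, a calcium-regulated factor gene, fell 3.54-fold. Of the other listed genes, Rras2 and P4ha2 were named for their high ratio to input with 4-OHT. Those ratios rest on 3 and 5 input reads over both 4-OHT libraries, and that of Sept9 on 0.

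The smallest changes among strong regions were at 3 sites with high input. The Cdk8 region (chr5:146261054-146261378), in a gene for a Mediator kinase, read 261 and 261 RP10M with EtOH and 207 and 229 with 4-OHT. Its inputs averaged 114 RP10M with EtOH and 107 with 4-OHT, against a median of 2.19 over all regions. The log2 change was -0.25 (SE 0.12, adjusted p = 0.0340), and leaving out 3 of the 4 libraries singly, any but 4-OHT replicate 2, ended this call (adjusted p 0.104 without 4-OHT replicate 1). The replicate block ended it as well (adjusted p = 0.0888), as did DESeq2 with library totals (0.137) and the model with the input change subtracted (0.381). The region in Cmss1 and Filip1l read 292 and 191 and then 178 and 176, with inputs of 77.8 and 80.1. The one in Zc3h7a read 122 and 121 and then 88.1 and 95.6, with inputs of 45.1 and 42.9. The part of the high input in these small changes was not tested. Together with Tef, these were the only intronic regions whose input exceeded 10 times the median. Without EtOH replicate 1 the Cmss1/Filip1l log2 change was -0.11 and its adjusted p 0.565, and leaving out either 4-OHT library also ended its call. The Zc3h7a call was lost without either EtOH library (adjusted p = 0.0610 and 0.0563). The next smallest falls above the median signal, in Gm21119 and Sdc4, were called at adjusted p = 0.0300 and 0.0219, and both calls were lost without 4-OHT replicate 2 or without EtOH replicate 1.

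Median changes by position within the gene are given as a description, without a test. The 300 first-intron regions had a median log2 change of -1.72 and the 523 in later introns -1.70. The 56 at another start of their host had -1.79, with 54 called, and the 726 that lay more than 1 kb from every RefSeq start had -1.72, with 694 called. The 7 regions at a start of another gene only had a median of -1.35, and all 7 were called. In that order the called shares were 96.4%, 95.6% and 100%, near the 93.8% of all regions. In 180 genes an intronic region came with one within 1 kb of the gene's own start. The intronic one was the stronger in 101 of these genes and fell more in 102, with median log2 changes of -1.79 in the intron and -1.62 at the start. Genes with a region at their start held 248 intronic regions, but each gene entered with 1, in Nfix and Hlf the strongest. Such a choice can raise both counts, since stronger regions also fell more, and its part in them was not tested. Across these 180 genes the 2 changes had a Pearson r of 0.09, given as a description since the genes share all libraries.

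The mRNA of 601 host genes could be tested in the 4 mRNA libraries, out of 661 host names. At an adjusted p below 0.05 in edgeR, 11 hosts rose (1.83%, against 0.802% of all 13216 genes tested) and 28 fell (4.66%, against 1.63%), so 6.49% changed, against 2.44% of all genes. The median log2 change of the hosts was 0.00, as it was over all genes. The share was 2.52% among genes with a region within 1 kb of their start and no intronic one, and 2.17% among genes with neither. Hosts were longer (median span 69708 bp against 19893 bp) and higher (median 58.9 CPM against 31.6) than other genes. Within genes over 100 kb, 6.61% of hosts changed against 3.47% of other genes, and within genes over 100 CPM, 6.02% against 2.77%. These shares are counts over genes in the same 4 libraries and were not tested against each other. The count of rising hosts depended on single libraries, with 25 without 4-OHT replicate 1, 7 without 4-OHT replicate 2 and 4 without EtOH replicate 2. Over all genes the rising counts were 199, 45 and 40 in the same settings, against 106 with all libraries. The count of falling hosts lay between 20 and 28.

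**Figure D5:**
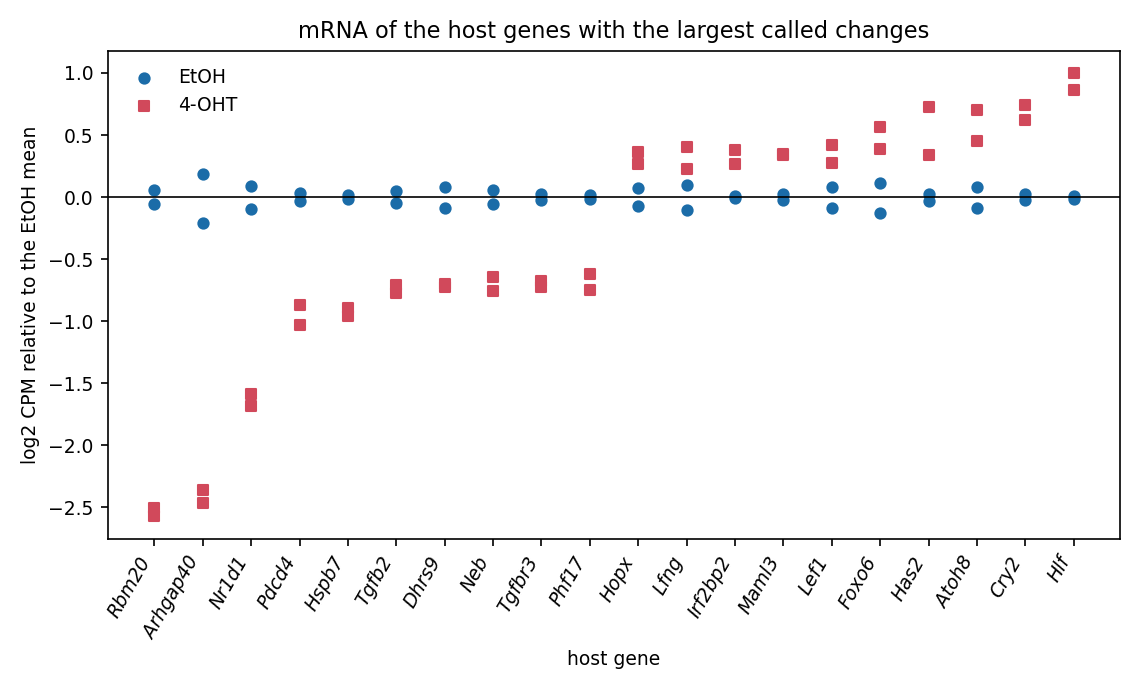
Log2 CPM relative to the EtOH mean (y axis) for the 10 host genes with the largest called fall and the 10 with the largest called rise in mRNA (x axis), with 1 point per EtOH library (blue) and per 4-OHT library (red). Red and blue points do not overlap in any of the 20 genes, which were picked for these changes.

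Rbm20, Arhgap40 and Nr1d1 had the deepest falls in mRNA among the hosts. Rbm20, a splicing factor known from heart muscle, read 2.97 and 3.21 CPM with EtOH and 0.545 and 0.520 CPM with 4-OHT (log2 change -2.53, SE 0.19, adjusted p = 6.43e-14 in edgeR). The Rbm20 region fell from 26.2 to 3.75 RP10M. Arhgap40 read 0.899 and 0.686 CPM and then 0.144 and 0.155, and Nr1d1 read 49.2 and 56.0 and then 16.4 and 17.5. The cells were labelled nr1d1-/-, and which allele the Nr1d1 reads came from was not tested. Pdcd4, an inhibitor of translation, read 70.2 and 73.3 CPM and then 39.3 and 35.1, and its region, at the internal start printed above, went from 119 to 27.8 RP10M. Jade1 mRNA, at 288 and 293 CPM, went to 190 and 173. Groups were apart in each of these genes, which were picked for called changes. The share of all genes with groups apart was not counted, so this adds no support. Hspb7, Tgfb2, Dhrs9, Neb and Tgfbr3 fell by 0.70 to 0.93 on the log2 scale. The Hspb7 call was lost under DESeq2 (adjusted p = 0.135).

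Of the 20 tested genes of the TGF-beta and BMP list, 5 fell and 0 rose, and of its 8 host genes 3 fell and 0 rose, where 1.63% of all genes and 4.66% of all hosts fell. These were Tgfb2, a ligand, at 151 and 161 CPM with EtOH and 95.6 and 91.3 with 4-OHT, Tgfbr3, a coreceptor, at 139 and 144 and then 88.6 and 85.8, and Bmp4, a ligand, at 77.3 and 80.7 and then 63.6 and 69.6. The 4-OHT libraries lay under the EtOH libraries in all 3, which are given here because they were called. The other hosts of the list, Ltbp1, Ski, Smad7, Smad6 and Smad3, did not pass. The median log2 change over the 20 genes was 0.00, equal to that of all genes.

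Of the 32 tested clock-list genes 8 rose and 3 fell, with a median log2 change of 0.07, and of the 10 hosts 3 rose and 1 fell, where 0.802% of all genes rose and 1.63% fell. Hlf read 0.970 and 0.987 CPM with EtOH and 1.78 and 1.96 with 4-OHT (log2 change 0.94, SE 0.18, adjusted p = 0.00077 in edgeR, 0.0765 in DESeq2). Cry2 read 19.4 and 18.8 and then 29.4 and 31.9, a 1.60-fold rise, and Klf10 64.4 and 58.7 and then 76.7 and 75.9. These 3 mRNAs rose where their intronic BMAL1 signal fell, while the mRNA of Nr1d1, labelled as knocked out, fell. Each of these genes also had a region within 1 kb of its start. With EtOH that region was stronger than the intronic one in Cry2 (908 RP10M), Hlf (329) and Nr1d1 (3031). In Klf10 it was weaker (119 against 206). Its log2 change was -2.60, -2.08, -2.42 and -1.67 in that order. The part of either region in the mRNA changes was not tested. Tef, with the strongest region, read 130 and 123 CPM and then 146 and 149 and missed the threshold (adjusted p = 0.0531 in edgeR). Dbp, Usp2, Npas2, Rora and Por did not pass. Dbp read 6.83 and 7.61 CPM and then 7.06 and 7.21, within the EtOH spread.

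Atoh8, Has2 and Foxo6 rose most among the other hosts. Atoh8, a bHLH factor gene, read 6.55 and 7.39 CPM with EtOH and 9.51 and 11.3 with 4-OHT. Has2, a hyaluronan synthase gene, read 2.77 and 2.66 and then 4.49 and 3.43, and Foxo6, a forkhead factor gene, 3.68 and 4.35 and then 5.25 and 5.95. Groups did not overlap in these genes, which were picked for called rises. The call of Has2 was lost without 4-OHT replicate 1 and without either EtOH replicate. That of Foxo6 was lost without 4-OHT replicate 2 or EtOH replicate 1. Lef1, Maml3, a Notch coactivator gene, Irf2bp2, Lfng, a Notch-modifying glycosyltransferase gene, and Hopx rose by 0.32 to 0.35 on the log2 scale. All 5 calls were lost without EtOH replicate 2 (adjusted p from 0.0743 to 0.716). No host was called among the 6 of the matrix and adhesion list, the 10 of the receptor and Ras list, the 3 of the metabolism list or the 6 of the transcription regulator list. Only 6.49% of all hosts and 2.44% of all genes were called, so few calls could stand among so few hosts. Over the whole lists, 2 of 44 tested matrix genes and 3 of 32 transcription regulators fell. In the metabolism list 1 of 21 rose, and in the receptor and Ras list 0 of 33 changed. Pfkfb3 read 18.9 and 18.8 CPM and then 22.3 and 21.9, with an adjusted p of 0.181 in edgeR, and Farp1 155 and 152 and then 137 and 140, with 0.405.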

How the data were processed

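BMAL1 ChIP-seq, its inputs and mRNA-seq were measured in 2 libraries per group, grouped by the labels. Per the labels, protein and DNA were crosslinked with formaldehyde, and the submitters' processing notes name build mm10, bedtools 2.25.0, featureCounts and DESeq2. No aligner is named. Gene counts, per the file headers, were made by the authors with featureCounts over exons joined by gene, with reverse-stranded counting. For each of the 8 ChIP and input libraries the authors deposited read counts over the same 4740 regions, named as peaks of the control, with the caller's fold enrichment as a ratio to background, its −log10 p and q values and a score. Those values were not used in tests. Pooling of replicates for calling is not stated there. A deposited signal table is named RPKM, but its values equal 5 plus reads per 10000000 library reads, undivided by length, which gave the library totals. The planned use of RPKM was replaced by this unit, with a pseudocount of 0.1.

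Counts were tested in edgeR 4.0.16 (R 4.3.3) with robust quasi-likelihood fits and Benjamini-Hochberg adjustment over all regions or all tested genes, at an adjusted p below 0.05. Regions used library totals without TMM factors, since scaling on regions would remove a change they share. Genes used TMM factors and edgeR's filter on low counts. CPM of host genes uses the kept genes, and that of the genes in the genotype and of markers uses all genes. The tandem E-box was searched with gaps of 6 and 7 bases. SE is the log2 change divided by the square root of F. DESeq2 1.42.0 was an alternative, and the fits were tested on simulated data. The 133 genes annotated at more than 1 locus or strand were left out of the placing of regions. No mm10 genome was used, so motifs planned for whole regions were searched in RefSeq start windows only (GRCm38.p6). Sequences are from RefSeq. Replicate input counts differed by no more than sampling noise (chi-square per degree of freedom 0.957 and 1.04, against 1.38 and 1.34 for ChIP). Their library totals differ, so they were kept as 2 libraries. Sampling limits precision at a median of 37.5 EtOH reads in called members.

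Members and gene lists were chosen with earlier results of these data known. Named were the 10 strongest members, the 10 largest and 5 smallest falls above the members' median signal, the 5 strongest not called, the 5 highest over 4-OHT input, those in clock-list genes, up to 10 called hosts in each direction, and listed genes holding one of the 100 strongest members. Nfix, Plec and Cuedc1 were named for their number of regions, and Rhobtb1 and Mbnl1 for their start windows, after values were seen. Alternatives covered scaling, filters, pseudocount, input, the limits of membership, the replicate block and leaving out each library.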

Additional observations from a re-analysis of the deposited data

How the results depend on the processing

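Scaling decides the size of the fall. TMM factors over the regions remove a change that most regions share and set the median of all regions near 0 (0.018). With them 32 intronic regions were lower and 14 higher, against 228 and 66 of all 4740 regions, with an intronic median log2 change of -0.036. Taken over ChIP and input libraries together, they also remove a shared excess over input. There 44 and 28 lay above input with EtOH and 4-OHT. These counts cannot show a fall that the regions share. DESeq2's own size factors are scaled on regions too, those read in every library. They gave 15 intronic regions lower, 3 higher and a median of -0.018. They left 881 of 4740 regions with an adjusted p, of which 133 were lower and 13 higher. With the input change subtracted, 427 intronic regions were lower, against 2395 of all 4740 regions, with an intronic median of -1.86. Leaving out each library gave 705 to 782 regions lower, none higher, medians of -1.78 to -1.66, and 503 to 660 above input with 4-OHT. Over all 4740 regions 3753 to 4234 were lower, with medians of -1.76 to -1.59. The log2 change of the library median, -1.68, was -1.57 with a pseudocount of 1, -1.98 with input subtracted and -1.62 for regions wholly outside exons. The ratio to gene starts, -0.18, was -0.091 per kb. The cause of these shifts was not tested. Rising hosts numbered 4 to 25 on leaving out each library, and 5 among hosts without a region at their start, which are fewer genes.

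Under TMM factors the log2 change turned positive for Cdk8 (1.45), Cmss1/Filip1l (1.27), Zc3h7a (1.30), Npas2 (0.20 and 0.22), Por (0.52), Gm21119 (1.00), Sdc4 (0.95), Xpnpep1/Snora19 (1.16), D630045J12Rik (0.97), Mtor (0.91), Adamts16 (1.33), Ltbp3 (1.17), Rora (0.35) and Hlf (0.022, 0.60 and 0.60). Under DESeq2's own factors it did so for Cdk8 (1.46), Cmss1/Filip1l (1.29) and Zc3h7a (1.31). With both scalings a positive value marks a change above about that of the median region, with the shared change removed. Leaving out each library gave Ltbp3 changes of -0.99 to 0.029, the highest without EtOH replicate 1, and Sept9 gave 2.63 with the input change subtracted. Of the 49 named regions 14, and of the 20 named genes 11, kept direction and call in all alternatives run. For regions these include the scalings that remove the shared change.

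Libraries of the same replicate number did not deviate together (correlation of deviations 0.02 for ChIP, -0.17 for mRNA and 0.01 for input), so the numbers were not taken as pairs. With the replicate block 803 regions were lower, 0 higher and the median was -1.71, 852 and 651 lay above input, 0 changed in the input, and 8 hosts rose and 21 fell. In that setting 4377 of all 4740 regions were lower and 0 higher, and 60 of all 13216 tested genes rose and 152 fell. With a replicate block of crossed numbers, chosen after seeing the data, 58 hosts rose and 65 fell, among 518 and 611 of all genes.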
